A study of Homo sapiens with 15 samples.

Results

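The insulin-like growth factor (IGF) genes described here were 10 of the 57820 genes in the count table, namely the ligands IGF1 and IGF2, the receptors IGF1R and IGF2R, and the binding proteins IGFBP2, IGFBP3, IGFBP4, IGFBP5, IGFBP6 and IGFBP7. They were chosen by name as ligands, receptors and binding proteins of the IGF system, though with earlier results of these data known. Each of the 10 was among the 28793 genes with a mean of 1 count or more over the libraries, which were tested. RNA was sequenced from A673 cells, an established Ewing sarcoma line driven by the fusion oncoprotein EWS/FLI, after knockdown of EWS/FLI and re-expression of different constructs (KD/rescue). There were 5 conditions with 3 libraries each, all from this 1 line. Every condition received a retroviral shRNA and then a retroviral cDNA vector. The iLuc cells received the luciferase shRNA and an empty vector and kept their endogenous EWS/FLI (endo-EF). The iEF cells received the EWS/FLI shRNA and an empty vector. The other conditions received the EWS/FLI shRNA together with WT-EF (wildtype EWS/FLI), Δ22 (a fusion without the EWS domain, used as the negative control) or DAF. The DAF fusion carries tyrosine to alanine changes in the amino-terminal repeats of the EWS domain, and not in all of its repeats. Cells took up the shRNA virus on day 1 and the cDNA virus on day 5, and were kept in 2 µg/mL puromycin with 400 µg/mL hygromycin B until day 16. The replicate numbers in the labels do not say whether libraries came from separate cultures, so the p-values measure only the spread between these libraries.

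IGF1 and IGF2 are secreted hormones that act mainly through the receptor tyrosine kinase IGF1R, which signals through adaptor proteins to the PI3K and AKT and the MAPK cascades. IGF2R, the cation-independent mannose 6-phosphate receptor, has no kinase and takes IGF2 into the cell for breakdown. The IGFBPs hold the ligands outside the cell with high affinity, and proteases that cut IGFBPs set ligands free, while IGFBP7 binds IGFs only weakly. The IGF1R pathway has long been studied in Ewing sarcoma, and IGFBP3 is a known repressed target of EWS/FLI.

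The libraries held between 28659475 and 41859880 counts. Levels are given below as CPM, counts divided by the library total in units of 1000000 counts and scaled by the trimmed mean of M-values (TMM), and differences as log2 fold changes with their standard error (SE) from edgeR's quasi-likelihood test. A gene was called changed at an adjusted p (Benjamini-Hochberg over all genes tested in that comparison) under 0.05. FLI1 transcripts, which include the fusion, stood at 48.0, 47.8 and 52.4 CPM in iLuc and at 12.9, 15.5 and 15.3 CPM in iEF, a log2 fold change of 1.77 (SE 0.10, adjusted p = 7.93e-09 by edgeR). FLI1 stood at 16.0, 18.0 and 18.7 CPM in WT-EF, which was not called against iEF (log2 fold change 0.27, adjusted p = 0.0538 by edgeR), at 24.4, 32.9 and 36.2 CPM in Δ22 and at 22.1, 23.6 and 27.3 CPM in DAF. The gene-level FLI1 count does not separate endogenous from re-expressed transcripts. Of 6 genes fixed as marks of Ewing sarcoma cells, NR0B1, NKX2-2, STEAP1, LIPI and CAV1 were detected in every library, while CD99, which lies in a region shared by the X and Y chromosomes, had at most 3 counts. Each of the detected marks was lower in iEF than in iLuc without overlap, LIPI at 3.32 to 13.5 against 186 to 238 CPM. Of the marks of other cell types, PTPRC had 7 to 31 counts, CDH5 2 to 21, EPCAM 3 to 33, ALB 0 to 6 and MYH6 0 to 1 per library. PECAM1, also fixed as such a mark, matched no gene by symbol. A bulk measurement of this kind cannot tell fewer cells expressing a gene from less RNA per cell.

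The upstream sequences of 3 genes, IGF1, IGFBP3 and IGFBP5, are shown because the results below turn on them. Against iEF, IGF1 was higher in iLuc, WT-EF and DAF. IGFBP3 was lower in iLuc and WT-EF and, by a call that some alternatives lost, in DAF. IGFBP5 was lower in iLuc and WT-EF and higher in Δ22 and DAF. EWS/FLI binds DNA through its ETS domain, whose core is GGAA. Each sequence is the 250 bases before a start site in RefSeq, given 5′ to 3′ on the strand of the gene and placed by an exact match in GRCh37 (hg19). Capitals mark GGAA or its reverse complement TTCC. RefSeq gives 2 windows for IGF1, and the one shown lies just before the 5′ end of the annotated gene, while the other, at chr12:102872329-102872578, lies within it and held 2 matches. The IGF1 window shown is chr12:102875526-102875775 on the minus strand, the IGFBP3 window chr7:45960872-45961121 on the minus strand and the IGFBP5 window chr2:217560273-217560522 on the minus strand. The IGFBP3 window lies within the annotated gene, whose 5′ end is farther upstream, while the IGFBP5 window lies just before its gene. No annotated exon of these 3 genes falls in its window, and an exon of DIRC3-AS1 on the other strand overlaps the IGFBP5 window.
IGF1: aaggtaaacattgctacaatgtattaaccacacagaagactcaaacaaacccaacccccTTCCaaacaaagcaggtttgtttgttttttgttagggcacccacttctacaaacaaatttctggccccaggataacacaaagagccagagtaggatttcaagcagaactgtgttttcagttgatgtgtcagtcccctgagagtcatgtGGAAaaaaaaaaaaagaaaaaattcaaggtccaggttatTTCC
IGFBP3: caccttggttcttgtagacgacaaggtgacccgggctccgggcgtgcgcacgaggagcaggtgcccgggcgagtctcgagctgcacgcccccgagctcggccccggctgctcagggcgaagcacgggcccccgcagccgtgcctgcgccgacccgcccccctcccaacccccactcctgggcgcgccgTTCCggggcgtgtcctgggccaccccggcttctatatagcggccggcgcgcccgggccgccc
IGFBP5: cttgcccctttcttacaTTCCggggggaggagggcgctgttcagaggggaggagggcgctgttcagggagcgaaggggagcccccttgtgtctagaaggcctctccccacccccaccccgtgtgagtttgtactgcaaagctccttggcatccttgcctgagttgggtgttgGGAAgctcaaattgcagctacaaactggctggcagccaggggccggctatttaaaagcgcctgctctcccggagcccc

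Among the 3 windows, IGF1 held 3 matches to GGAA on either strand, IGFBP3 held 1 and IGFBP5 held 2. RefSeq windows were found for 8 of the 10 genes, with 11 windows in all, and 10 of these held GGAA on either strand. This core is short and common, since 92.7% of all 35116 windows of the same length held it. None of the 11 windows held GGAAGGAA, which 3.06% of all windows held on either strand, or CCGGAAGT, which 3.42% held. A match describes letters in a window and does not show binding, and these windows do not reach distal repeats.

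The comparisons of iLuc, WT-EF, Δ22 and DAF with iEF asked which genes differed from EWS/FLI-depleted cells when endo-EF was kept or a construct was re-expressed. They share the 3 iEF libraries. In iLuc against iEF, 1 of the 10 genes was higher (IGF1) and 7 were lower, where 41.6% of all genes tested were called (19.5% higher and 22.1% lower). The 7 were IGF2R and each of the 6 binding proteins, and IGF1R and IGF2 were not called. In WT-EF against iEF, IGF1 was higher and 8 genes were lower, the same 7 and IGF1R, with 29.9% of all genes called (12.9% higher and 17.0% lower). In Δ22 against iEF, IGFBP5 was higher and IGFBP2 lower, with 1.30% of all genes called (0.472% higher and 0.830% lower). In DAF against iEF, IGF1 and IGFBP5 were higher and IGFBP2 and IGFBP3 lower, with 11.2% of all genes called (5.00% higher and 6.19% lower). The median log2 fold change of the 10 genes was -2.64 in iLuc and -1.60 in WT-EF, against 0.04 and -0.01 over all genes tested, and it was -0.21 in Δ22 and -0.15 in DAF, against 0.01 and 0.00. On the authors' ComBat-adjusted counts, tested with limma, iLuc and WT-EF had the same split, while DAF had 3 higher and 1 lower and Δ22 had 1 lower. Several changes were smaller on that scale, and ComBat-adjusted values are given below for many of them, though not for all.

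**Figure D1:**
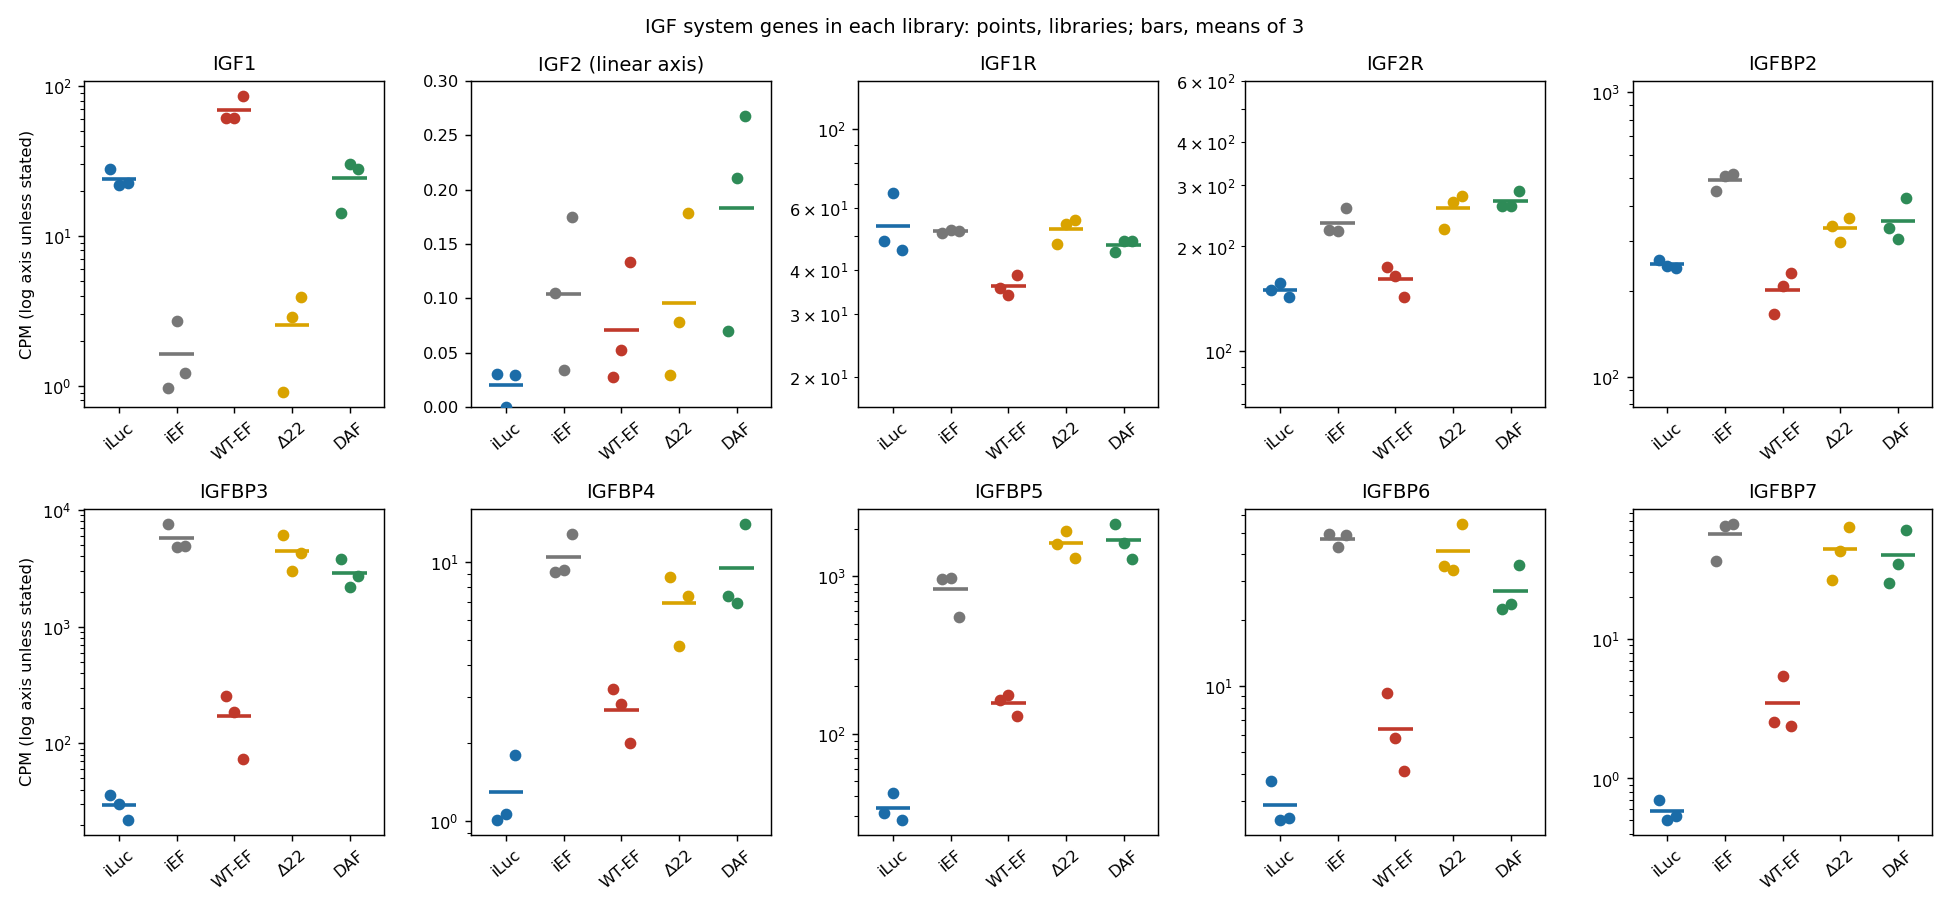
CPM of the 10 IGF system genes in each of 15 libraries, on a log axis except for IGF2, with the mean of 3 libraries per condition as a bar. The 6 binding proteins sit lower in iLuc and WT-EF than in iEF, Δ22 and DAF in every library, and IGF1 sits higher in iLuc, WT-EF and DAF than in iEF and Δ22.

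IGF1 (ENSG00000017427, chr12:102789652-102875522, minus strand), the main ligand of IGF1R, was high in iLuc, WT-EF and DAF and low in iEF and Δ22. Its level was 28.0, 21.9 and 22.4 CPM in iLuc and 0.972, 2.70 and 1.22 CPM in iEF. It reached 61.6, 61.1 and 86.0 CPM in WT-EF, 0.908, 2.89 and 3.89 CPM in Δ22, and 14.2, 30.2 and 28.2 CPM in DAF. The iLuc, WT-EF and DAF libraries each lay above every iEF and Δ22 library, and the iEF and Δ22 libraries overlapped. IGF1 was 15.9-fold higher in iLuc than in iEF (log2 fold change 3.99, SE 0.39, adjusted p = 9.89e-07 by edgeR) and 44.4-fold higher in WT-EF (5.47, SE 0.40, adjusted p = 2.66e-07). In DAF it was 14.9-fold higher than in iEF (3.89, SE 0.38, adjusted p = 2.92e-05). In Δ22 it was not called (log2 fold change 0.63, 95% interval -0.24 to 1.5, adjusted p = 0.567). Set directly against each other, WT-EF exceeded iLuc by 1.48 (SE 0.32, adjusted p = 0.0045) and DAF by 1.58 (SE 0.32, adjusted p = 0.00176), and DAF exceeded Δ22 by 3.27 (SE 0.37, adjusted p = 0.000404) on the log2 scale. These IGF1 calls held under every alternative tried, but on the ComBat-adjusted counts the log2 fold changes against iEF were 2.74 in iLuc, 4.16 in WT-EF and 2.61 in DAF, and DAF exceeded Δ22 by 2.31. Without replicate set 2 the values were 4.59 in iLuc and 6.06 in WT-EF. The genes whose levels over the 15 libraries ran most like IGF1 among 13178 genes were TRHDE (Pearson r = 0.98), APCDD1 (r = 0.98) and PHOSPHO1 (r = 0.97), a description that largely reflects the 5 conditions.

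IGF2 (ENSG00000167244, chr11:2150342-2179621, minus strand), the ligand shared by IGF1R and IGF2R, was close to absent. It had 1, 0 and 1 counts in iLuc, 4, 1 and 6 in iEF, 1, 2 and 5 in WT-EF, 1, 3 and 5 in Δ22, and 2, 8 and 8 in DAF. In 9 of the 15 libraries it had no more than 3 counts, the number that a count of 0 allows. With every library kept, edgeR called it in none of the 7 comparisons. DESeq2 gave it no adjusted p in Δ22 or DAF against iEF, WT-EF against iLuc or DAF against Δ22. In the remaining comparisons DESeq2 did not call it, and counts this low limit any comparison. In iLuc against iEF the unadjusted p was 0.023 and the adjusted p 0.0543, which became 0.0443 without iLuc replicate 1 and 0.0347 without iEF replicate 2. The gene shares 1460 exon bases with the INS-IGF2 readthrough gene and 333 with the antisense gene IGF2-AS, so its count is also uncertain.

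IGF1R (ENSG00000140443, chr15:99191768-99507759, plus strand), the signaling receptor, kept between 34.0 and 66.1 CPM over the 15 libraries. It stood at 48.4, 66.1 and 45.7 CPM in iLuc, 51.0, 51.8 and 51.4 CPM in iEF, and 35.5, 34.0 and 38.6 CPM in WT-EF. Its level was 47.4, 54.0 and 55.3 CPM in Δ22 and 45.0, 48.3 and 48.2 CPM in DAF. The 3 WT-EF libraries were the lowest of the 15, and the iLuc and iEF libraries overlapped. IGF1R fell by 0.51 in WT-EF against iEF (log2, SE 0.11, adjusted p = 0.00303), by 0.56 against iLuc (SE 0.11, adjusted p = 0.00297) and by 0.38 against DAF (SE 0.11, adjusted p = 0.0191). For iLuc against iEF the log2 fold change was 0.05 (95% interval -0.19 to 0.29, adjusted p = 0.776). Without replicate set 1 the first of these was lost (adjusted p = 0.0517), and the call against iLuc was lost without set 1 (0.0557) or set 2 (0.111). The WT-EF against DAF call was lost without WT-EF replicate 2 (adjusted p = 0.106), DAF replicate 1 (0.0545) or DAF replicate 3 (0.0739), and with limma on the ComBat-adjusted counts (log2 fold change -0.19, adjusted p = 0.133). Leaving out replicate set 1 (0.0991) or 2 (0.0819) lost it too.

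IGF2R (ENSG00000197081, chr6:160390114-160534539, plus strand), the receptor that clears IGF2, was lower wherever EWS/FLI was wildtype. Its level was 149.7, 156 and 143 CPM in iLuc and 174, 165 and 143 CPM in WT-EF, against 223, 221 and 258 CPM in iEF. It stood at 225, 269 and 280.1 CPM in Δ22 and 261, 261 and 289.8 CPM in DAF. The 6 iLuc and WT-EF libraries lay below the other 9. The decrease was 0.64 on the log2 scale in iLuc (a fold change of 1.56, SE 0.10, adjusted p = 0.000147) and 0.54 in WT-EF (1.45-fold, SE 0.10, adjusted p = 0.00109) against iEF. In DAF and Δ22 the log2 fold changes against iEF were 0.21 (95% interval -0.01 to 0.43, adjusted p = 0.239) and 0.14 (-0.08 to 0.36, adjusted p = 0.64). On the ComBat-adjusted counts the DAF value was called (0.25, adjusted p = 0.0232 by limma). WT-EF was lower than DAF by 0.75 (a log2 fold change of -0.75, SE 0.10, adjusted p = 9.73e-05).

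IGFBP3 (ENSG00000146674, chr7:45951844-45961473, minus strand), the main carrier of IGFs in serum, had the largest change of the 10 genes in iLuc and the largest decrease in WT-EF. It stood at 35.9, 30.3 and 22.1 CPM in iLuc and at 7644, 4804 and 4874 CPM in iEF. In WT-EF it stood at 257, 185 and 73.6 CPM. In Δ22 it was at 6145, 3007 and 4270.4 CPM and in DAF it stood at 3766, 2172 and 2695 CPM. The conditions formed 3 tiers without overlap, with iLuc lowest, WT-EF next and the other 9 libraries from 2172 CPM upward. IGFBP3 was 194-fold lower in iLuc than in iEF (log2 fold change -7.60, SE 0.32, adjusted p = 9.27e-10) and 35.0-fold lower in WT-EF (-5.13, SE 0.29, adjusted p = 4.34e-08). On the ComBat-adjusted counts the log2 fold changes were -4.40 in iLuc and -3.65 in WT-EF, so the size of the decrease depended on that adjustment. In Δ22 the difference was not called (log2 fold change -0.37, 95% interval -0.89 to 0.15, adjusted p = 0.571), and 1 of 25 alternatives called it, namely no filter (0.0478).

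The DAF libraries lay below the iEF libraries for IGFBP3, by a log2 fold change of -0.996 (SE 0.24, adjusted p = 0.0164), a call that 8 of 25 alternatives lost. It was lost without iEF replicate 1 (adjusted p = 0.0567) or 3 (0.0714), without DAF replicate 1 (0.072) or 2 (0.104), without replicate set 1 (0.161) or 2 (0.0995), without the replicate block (0.11) and with limma on the ComBat-adjusted counts (0.209). DAF against Δ22 gave -0.63 (95% interval -1.15 to -0.10), which was not called over all genes (adjusted p = 0.343). Each DAF library lay below the Δ22 library of the same number, and 4 of 25 alternatives called the difference, namely no filter (1.77e-05), the 6 libraries compared alone (3.48e-09), and the fits without WT-EF replicate 3 (0.0222) or replicate set 3 (0.0473). WT-EF was 17.6-fold lower than DAF (log2 fold change -4.13, SE 0.28, adjusted p = 6.34e-07), or -2.78 on the ComBat-adjusted counts. It stood above iLuc by 2.47 (SE 0.26, adjusted p = 2.21e-05) in the deposited counts, while on the ComBat-adjusted counts the log2 fold change was 0.75 (adjusted p = 0.222 by limma). Those adjusted values were 242, 98.9 and 551 CPM in iLuc and 413, 265 and 581 CPM in WT-EF, so the ranges overlapped there. The genes most like IGFBP3 over the 15 libraries were RHBDF1, OSBPL10 and CD59, each with r = 0.99.

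IGFBP5 (ENSG00000115461, chr2:217536828-217560272, minus strand), a binding protein that also attaches to the extracellular matrix, was called lower in WT-EF and higher in both mutants against iEF. Its level was 968, 977 and 553 CPM in iEF and 31.1, 42.1 and 28.3 CPM in iLuc. WT-EF stood at 164, 176 and 130.3 CPM. Δ22 reached 1617, 1929.8 and 1313 CPM and DAF reached 2167, 1638 and 1286 CPM. Each of the 6 Δ22 and DAF libraries lay above the highest iEF library, and the Δ22 and DAF ranges overlapped. Against iEF, IGFBP5 fell by 4.59 in iLuc (log2, SE 0.15, adjusted p = 1.11e-10) and by 2.38 in WT-EF (SE 0.14, adjusted p = 5.87e-08), with log2 fold changes of -2.69 and -1.69 on the ComBat-adjusted counts. It rose by 1.05 in DAF (SE 0.13, adjusted p = 0.000208), a call that held in all 25 alternatives, and by 0.99 in Δ22 (SE 0.13, adjusted p = 0.00421). The Δ22 call was lost without the replicate block (adjusted p = 0.0802), on the ComBat-adjusted counts (0.0671) and without replicate set 2 (0.199). DAF against Δ22 gave 0.06 (95% interval -0.22 to 0.35, adjusted p = 0.946). WT-EF was 10.8-fold lower than DAF (log2 fold change -3.43, SE 0.15, adjusted p = 1.24e-08), or -2.70 on the ComBat-adjusted counts. WT-EF exceeded iLuc by 2.21 (log2, adjusted p = 3.46e-07 by edgeR), or by 1.00 on the ComBat-adjusted counts. IGFBP5 shares 487 exon bases with DIRC3-AS1 on the other strand.

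IGFBP2 (ENSG00000115457, chr2:217497551-217529159, plus strand), a binding protein abundant in fetal tissue and in many tumors, lies 7668 bases from IGFBP5 on the opposite strand and did not follow its rise. It stood at 449, 509 and 517 CPM in iEF and at 258, 246 and 241 CPM in iLuc. The WT-EF libraries had 166, 209 and 232 CPM, the Δ22 libraries 339, 297 and 362 CPM and the DAF libraries 333, 306 and 424 CPM. Every library of the other conditions lay below the lowest iEF library. The log2 fold change against iEF was -0.98 in iLuc (SE 0.11, adjusted p = 6.21e-06), -1.29 in WT-EF (SE 0.11, adjusted p = 1.32e-06), -0.56 in Δ22 (SE 0.11, adjusted p = 0.024) and -0.48 in DAF (SE 0.11, adjusted p = 0.0129). WT-EF was lower than DAF (log2 fold change -0.81, SE 0.11, adjusted p = 0.00011) and lay below iLuc by an uncalled margin (-0.31, adjusted p = 0.0724).

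The smaller differences of IGFBP2 depended on single libraries. The Δ22 call was lost without iEF replicate 1 (adjusted p = 0.078), 2 (0.0903) or 3 (0.0672), without Δ22 replicate 2 (0.163) or 3 (0.107), and without the replicate block (0.0727). Leaving out replicate set 1 (0.0881) or 2 (0.424) lost it too. The DAF call was lost without iEF replicate 2 (0.0666), DAF replicate 1 (0.0518) or DAF replicate 2 (0.105), and without replicate set 1 (0.0751) or 2 (0.216). The iLuc and WT-EF calls against iEF held throughout.

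**Figure D2:**
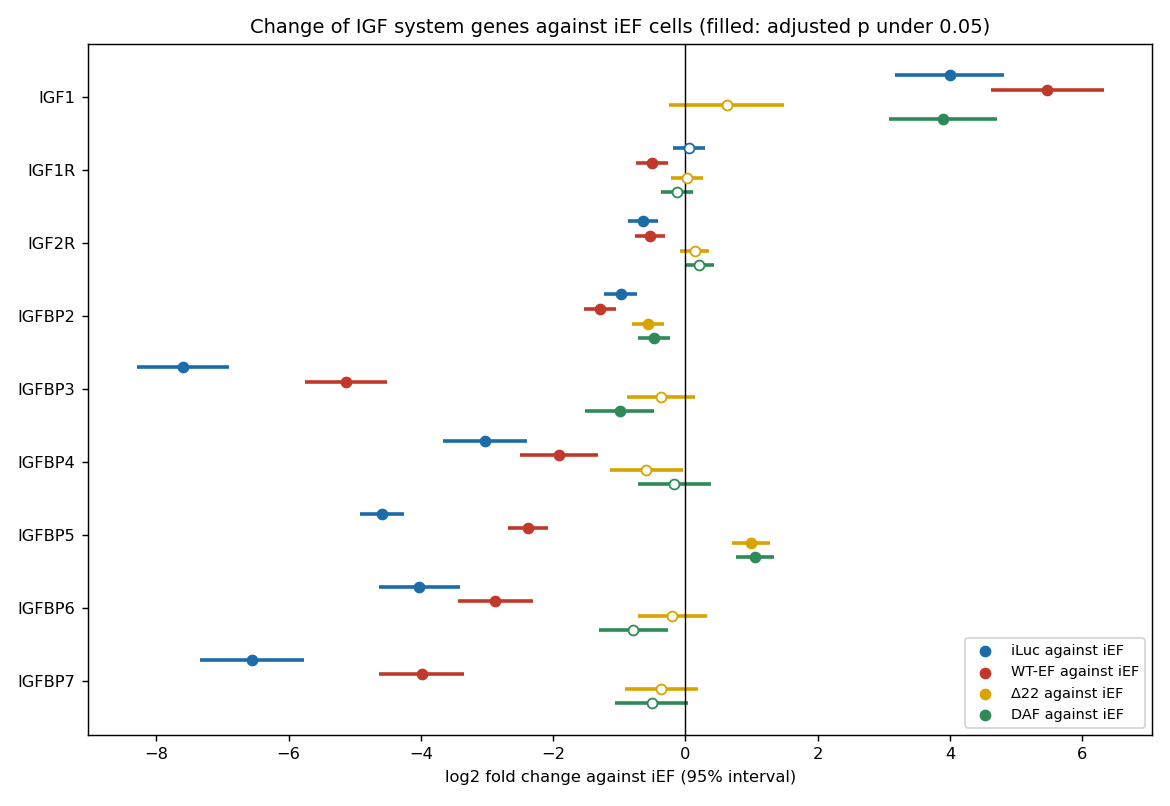
Log2 fold change against iEF with its 95% interval for 9 IGF system genes (IGF2 left out for its low counts), with filled points at an adjusted p under 0.05. IGFBP3 has the lowest values, -7.60 in iLuc and -5.13 in WT-EF, and IGFBP5 is the binding protein with called values on both sides of 0.

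IGFBP7 (ENSG00000163453, chr4:57896939-57976551, minus strand), a secreted protein with weak IGF binding, had the second largest decrease in iLuc. It stood at 36.5, 64.7 and 67.3 CPM in iEF and at 0.703, 0.505 and 0.537 CPM in iLuc. The WT-EF libraries had 2.55, 5.44 and 2.37 CPM, the Δ22 libraries 26.4, 42.8 and 63.7 CPM and the DAF libraries 25.2, 34.7 and 60.1 CPM. The Δ22 and DAF ranges overlapped the iEF range, and the WT-EF libraries lay between the iLuc libraries and the rest. IGFBP7 was 93.9-fold lower in iLuc (log2 fold change -6.55, SE 0.37, adjusted p = 6.38e-09) and 15.9-fold lower in WT-EF (-3.99, SE 0.30, adjusted p = 3.59e-07) than in iEF, with log2 fold changes of -3.68 and -2.82 on the ComBat-adjusted counts. In DAF the value was -0.51 (95% interval -1.06 to 0.04, adjusted p = 0.258), and 3 of 25 alternatives called it, namely no filter (0.0167), the 6 libraries compared alone (0.0234) and leaving out replicate set 3 (0.00986). WT-EF exceeded iLuc by 2.57 (SE 0.38, adjusted p = 0.000341), or by 0.86 on the ComBat-adjusted counts (adjusted p = 0.0721 by limma). Against DAF the WT-EF value was -3.48 (log2 fold change, adjusted p = 2.98e-06 by edgeR), or -2.40 on the ComBat-adjusted counts. IGFBP7 shares 260 exon bases with POLR2B on the other strand.

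IGFBP6 (ENSG00000167779, chr12:53491220-53496129, plus strand), which prefers IGF2 over IGF1, had the same order of mean levels as IGFBP7. Its level was 49.1, 43.0 and 48.9 CPM in iEF, 3.70, 2.47 and 2.51 CPM in iLuc and 9.28, 5.84 and 4.13 CPM in WT-EF. It stood at 35.1, 33.7 and 55.0 CPM in Δ22 and 22.4, 23.8 and 35.5 CPM in DAF. The DAF libraries lay below the iEF libraries and the Δ22 libraries on both sides of them. IGFBP6 fell by 4.03 in iLuc (log2, SE 0.29, adjusted p = 5.05e-08) and by 2.87 in WT-EF (SE 0.27, adjusted p = 1.78e-06) against iEF, with log2 fold changes of -2.83 and -2.18 on the ComBat-adjusted counts. The DAF value of -0.79 (95% interval -1.31 to -0.26) just missed the threshold (adjusted p = 0.0523) and passed it in 8 of 25 alternatives, with DESeq2 (0.0222) among them. WT-EF exceeded iLuc by 1.15 (SE 0.28, adjusted p = 0.00902), which was lost without WT-EF replicate 1 (log2 fold change 0.83, adjusted p = 0.0535). The same call was lost without replicate set 1 (0.0507) or 2 (0.147).

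IGFBP4 (ENSG00000141753, chr17:38599702-38613977, plus strand), the binding protein cut by the protease PAPP-A, was the lowest of the binding proteins in iEF by CPM. It stood at 9.14, 9.38 and 12.9 CPM in iEF, 1.01, 1.07 and 1.79 CPM in iLuc and 3.24, 2.83 and 2.00 CPM in WT-EF. Its level was 8.76, 4.75 and 7.40 CPM in Δ22 and 7.42, 6.96 and 14.1 CPM in DAF. The iLuc, WT-EF and iEF ranges did not overlap, and the DAF range spanned that of iEF. IGFBP4 fell by 3.03 in iLuc (log2, SE 0.29, adjusted p = 1.06e-06) and by 1.92 in WT-EF (SE 0.27, adjusted p = 8.85e-05) against iEF, the first with a log2 fold change of -2.08 on the ComBat-adjusted counts. Neither Δ22 (-0.59, adjusted p = 0.332) nor DAF (-0.17, adjusted p = 0.77) was called. WT-EF exceeded iLuc by 1.11 (SE 0.30, adjusted p = 0.0169), which was lost without iLuc replicate 1 (adjusted p = 0.0785), WT-EF replicate 1 (0.0739) or WT-EF replicate 2 (0.0935). The same call was lost without replicate set 1 (0.195) or 2 (0.201), and with the 6 libraries compared alone (0.0561).

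The comparison of WT-EF with iLuc asked how far the re-expressed fusion returned these genes to their level under endo-EF. Of the 10 genes, 6 were higher in WT-EF (IGF1, IGFBP3, IGFBP4, IGFBP5, IGFBP6 and IGFBP7) and IGF1R was lower, where 19.7% of all genes tested were called (10.7% higher and 9.03% lower). For IGF1 the higher level lay farther from iEF than iLuc did, and for the 5 binding proteins it lay between iLuc and iEF. In WT-EF against DAF, IGF1 was higher and 8 genes were lower, each but IGF2, with 28.5% of all genes called (12.4% higher and 16.1% lower). In DAF against Δ22, IGF1 was called, with 1.33% of all genes called (0.948% higher and 0.379% lower). FLI1 stood higher in DAF than in WT-EF (log2 fold change of WT-EF against DAF -0.47, adjusted p = 0.00264), and the part of construct level in these differences was not tested.

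Levels of different genes were compared per kilobase of the canonical transcript, in the deposited counts only. In iLuc, IGFBP2 led at 176 ± 6.35 CPM per kb (SD, n = 3), above IGFBP3 at 11.3 ± 2.67 and IGF2R at 10.6 ± 0.478, whose ranges overlapped. IGFBP5, IGF1R, IGF1 and IGFBP6 followed between 5.42 and 3.05 CPM per kb, each range overlapping that of the next. In iEF, IGFBP3 led at 2210 ± 620.0 CPM per kb, followed without overlap by IGFBP2 at 348 ± 26.1 and IGFBP5 at 133 ± 38.9. WT-EF had the order of iLuc at the top, with IGFBP2 at 143 ± 23.7 and IGFBP3 at 65.8 ± 35.4 CPM per kb. In Δ22 and DAF, IGFBP3 led at 1712 ± 604 and 1101 ± 311 CPM per kb, and IGFBP5 and IGFBP2 followed with overlapping ranges. IGF1 ranked in place 6 of 10 in iLuc, 5 in WT-EF and 9 in the other conditions, and IGF2 was last in all 5. With merged exon lengths, a choice added after seeing the data, IGFBP5 passed IGFBP2 in iEF, IGF2R passed IGFBP3 in iLuc, IGF1 passed IGF2R in WT-EF and IGFBP7 passed IGFBP6 in DAF.

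The summed per-kilobase level of the 6 binding proteins was 187 to 206 in iLuc and 219.8 to 258 in WT-EF, against 2424 to 3479.9 in iEF, 1738 to 2911 in Δ22 and 1363 to 2069 in DAF. This sum leaves out IGFBP1, which was not among the genes chosen and averaged 15.2 CPM per kb in iEF. IGFBP3 made up 4.51 to 6.67% of the sum in iLuc, 12.8 to 38.6% in WT-EF, 75.0 to 84.1% in iEF, 66.2 to 80.8% in Δ22 and 61.0 to 69.7% in DAF. IGFBP2 made up 88.6 to 91.0% in iLuc and 46.0 to 74.5% in WT-EF, and at most 18.5% in any library of the other conditions. With merged exon lengths the IGFBP2 share was 76.7 to 80.7% in iLuc, and in WT-EF replicate 1 IGFBP3 exceeded it, at 44.5 against 27.7%. The IGF1 level was 1.54 to 1.86% of this sum in iLuc and 3.25 to 5.37% in WT-EF. It was 0.00384 to 0.0151% in iEF, 0.00429 to 0.0242% in Δ22 and 0.0943 to 0.304% in DAF. With merged exon lengths the summed level was 63.0 to 70.7 in iLuc and 90.3 to 126 in WT-EF, and the IGF1 level was 3.99 to 4.87% of it in iLuc, 6.01 to 11.7% in WT-EF and 0.139 to 0.447% in DAF. With either length the DAF libraries lay above the iEF and Δ22 libraries and below the iLuc and WT-EF libraries on this ratio of transcripts, which says nothing of the proteins.

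**Figure D3:**
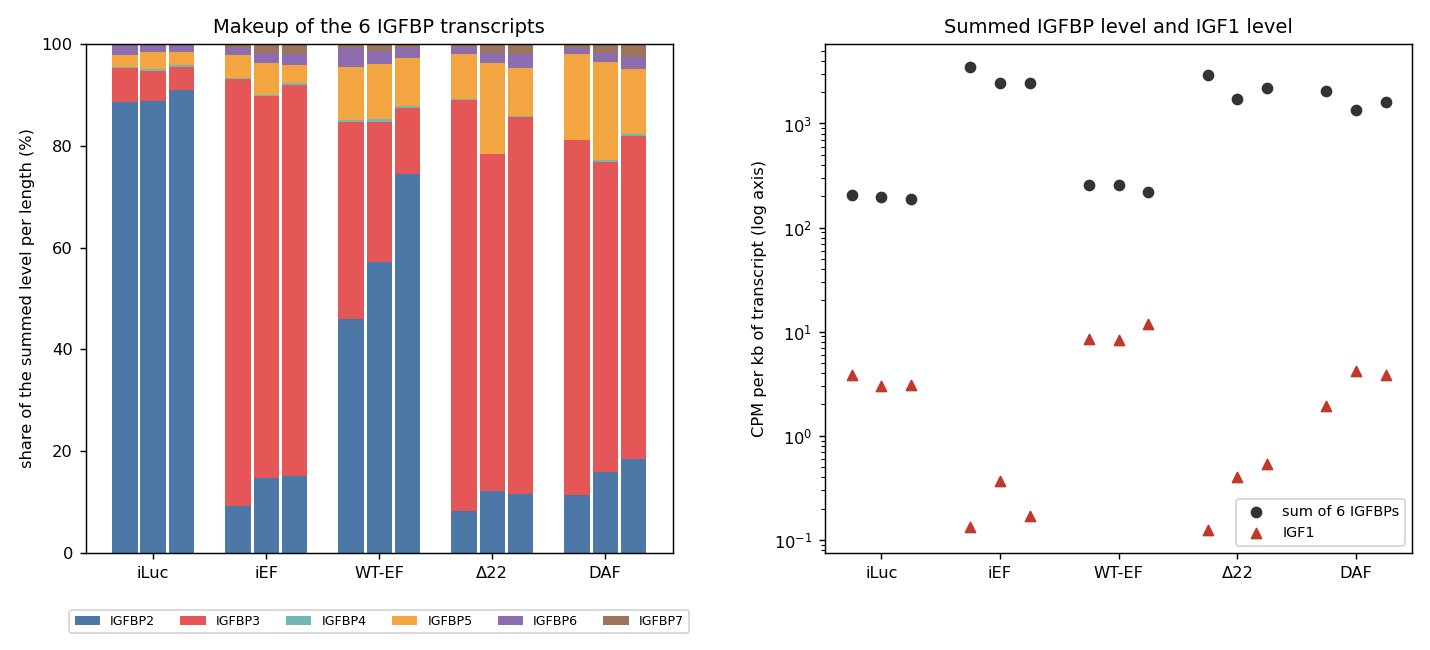
Left, share of each of 6 binding proteins in their summed level per kilobase of transcript, 1 bar per library in replicate order. Right, the summed level (circles) and the IGF1 level (triangles) in CPM per kilobase on a log axis. In the deposited counts shown, IGFBP2 is the larger share in the 3 iLuc libraries (88.6 to 91.0%) and IGFBP3 in the iEF, Δ22 and DAF libraries (61.0 to 84.1%).

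A list of 40 other genes of the pathway was counted in the same fit, and 37 of them were tested, since INS, IRS4 and H19 averaged under 1 count. In iLuc against iEF, 8 were higher and 20 lower, where 41.6% of all genes tested were called, and in WT-EF against iEF 7 were higher and 16 lower, where 29.9% were called. In Δ22, 2 were higher and none lower (1.30% of all genes called), and in DAF 5 were higher and 4 lower (11.2%). The balance of directions depended on the adjustment, since limma on the ComBat-adjusted counts called 10 higher and 11 lower in iLuc, 12 higher and 7 lower in WT-EF, and 7 higher and 2 lower in DAF. The median log2 fold change of the 37 was -0.29 in iLuc and -0.19 in WT-EF, against 0.04 and -0.01 over all genes tested. Of the 9 PI3K and AKT genes counted, 6 were lower in iLuc, and of the 5 IGFBP proteases and their inhibitors, 1 was higher and 4 lower. Over all genes tested in that comparison, 19.5% were higher and 22.1% lower. These counts by role come from the main fit only and were not made on the ComBat-adjusted counts.

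IGFBP1, a binding protein controlled by insulin in liver, lies 18584 bases from IGFBP3 on the opposite strand of chromosome 7 and moved the same way. It had 1, 4 and 2 counts in iLuc and stood at 31.5, 13.0 and 24.8 CPM in iEF, 0.886, 0.370 and 0.0533 CPM in WT-EF, 32.4, 10.8 and 13.3 CPM in Δ22 and 12.5, 5.51 and 3.96 CPM in DAF. The fitted log2 fold change was -8.35 in iLuc (SE 0.54, adjusted p = 2.09e-08), -5.85 in WT-EF (SE 0.42, adjusted p = 2.40e-07) and -1.76 in DAF (SE 0.32, adjusted p = 0.00268), where it was lost without the replicate block (0.068). The iLuc and WT-EF values rest on few counts and depend on the prior count of the fit, and on the ComBat-adjusted counts they were -3.96 and -3.54.

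Among the proteases, HTRA1, a secreted serine protease that cuts IGFBPs, stood at 0.703, 0.645 and 0.746 CPM in iLuc and 71.7, 103 and 101 CPM in iEF. It fell by 7.02 in iLuc (log2, SE 0.23, adjusted p = 1.03e-10), by 3.82 in WT-EF (SE 0.18, adjusted p = 1.34e-08) and by 1.18 in DAF (SE 0.16, adjusted p = 0.000381) against iEF, the last lost on the ComBat-adjusted counts (0.063), where the first 2 had log2 fold changes of -4.01 and -2.84. PAPPA, the protease of IGFBP4, moved the other way. It stood at 123, 131 and 137 CPM in iLuc, 31.0, 27.8 and 35.2 CPM in iEF, 88.2, 90.1 and 103 CPM in WT-EF, 45.4, 64.2 and 136 CPM in Δ22 and 68.6, 82.1 and 117 CPM in DAF. PAPPA rose by 2.06 in iLuc (SE 0.21, adjusted p = 1.82e-06), 1.58 in WT-EF (SE 0.21, adjusted p = 4.39e-05), 1.29 in Δ22 (SE 0.21, adjusted p = 0.00996) and 1.47 in DAF (SE 0.21, adjusted p = 0.000438). The Δ22 call was lost without iEF replicate 3 (0.0618) and without replicate set 2 (0.282). STC1, a stanniocalcin that inhibits PAPP-A, stood at 14.2, 19.9 and 19 CPM in iLuc and 368, 277 and 286 CPM in iEF. It fell by 4.09 in iLuc (SE 0.33, adjusted p = 1.89e-07) and by 2.23 in WT-EF (SE 0.31, adjusted p = 6.44e-05), with log2 fold changes of -2.74 and -1.64 on the ComBat-adjusted counts. PAPPA2, the related protease, had 0 to 2 counts in iLuc and 2 to 33 in iEF.

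IRS2, an adaptor that links IGF1R and the insulin receptor to PI3K, ordered the conditions without overlap. It stood at 29.6 to 32.6 CPM in iEF, 35.5 to 45.7 in Δ22, 61.6 to 73.4 in DAF, 101 to 116 in iLuc and 144 to 146 in WT-EF. The log2 fold change against iEF was 1.11 in DAF (SE 0.09, adjusted p = 9.88e-06), 1.82 in iLuc (SE 0.09, adjusted p = 2.34e-09) and 2.24 in WT-EF (SE 0.09, adjusted p = 3.71e-09). The Δ22 value of 0.40 (SE 0.09, adjusted p = 0.04) was lost on leaving out any 1 iEF or Δ22 library (adjusted p from 0.0637 to 0.277), iLuc replicate 1 (0.0598) or 2 (0.0589), or DAF replicate 2 (0.0646) or 3 (0.061), and without the replicate block (0.0851). Leaving out replicate set 1 (0.184) or 2 (0.527), or comparing the 6 libraries alone (0.127), lost it too. INSR, the insulin receptor, which also forms hybrids with IGF1R, stood at 36.1, 49.1 and 48.7 CPM in iLuc and 12, 15.5 and 16.0 CPM in iEF. It rose by 1.62 in iLuc (SE 0.16, adjusted p = 1.26e-06) and by 1.02 in DAF (SE 0.16, adjusted p = 0.000932), the latter lost without replicate set 2 (0.0533). The WT-EF value of 0.44 (SE 0.16, adjusted p = 0.0481) was lost without iEF replicate 2 (0.1) or 3 (0.184), WT-EF replicate 1 (0.164) or 3 (0.0547), Δ22 replicate 1 (0.0547) or 3 (0.0568), and without the replicate block (0.288). The same held without replicate set 2 (0.157) or 3 (0.0695). The INSR level in WT-EF was below that in iLuc (log2 fold change -1.18, SE 0.16, adjusted p = 0.000153).

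FOXO4, a transcription factor held out of the nucleus by AKT, rose by 1.65 in iLuc (SE 0.26, adjusted p = 0.000112), 1.44 in WT-EF (SE 0.26, adjusted p = 0.000625) and 1.41 in DAF (SE 0.26, adjusted p = 0.00287). IGF2BP1, which binds IGF2 mRNA among others, rose by 1.58 in iLuc (SE 0.09, adjusted p = 1.15e-08) and 0.97 in WT-EF (SE 0.09, adjusted p = 2.71e-06). IGFBPL1 was higher in iLuc (1.67, SE 0.35, adjusted p = 0.0012), and INSRR, an orphan receptor of the insulin receptor family, was lower (-1.54, SE 0.59, adjusted p = 0.0495) at 3 to 28 counts per iLuc or iEF library, a call that 13 of 25 alternatives lost, among them DESeq2 (0.0503) and leaving out iLuc replicate 1 (0.175), iLuc replicate 2 (0.177) or iEF replicate 2 (0.277).

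**Figure D4:**
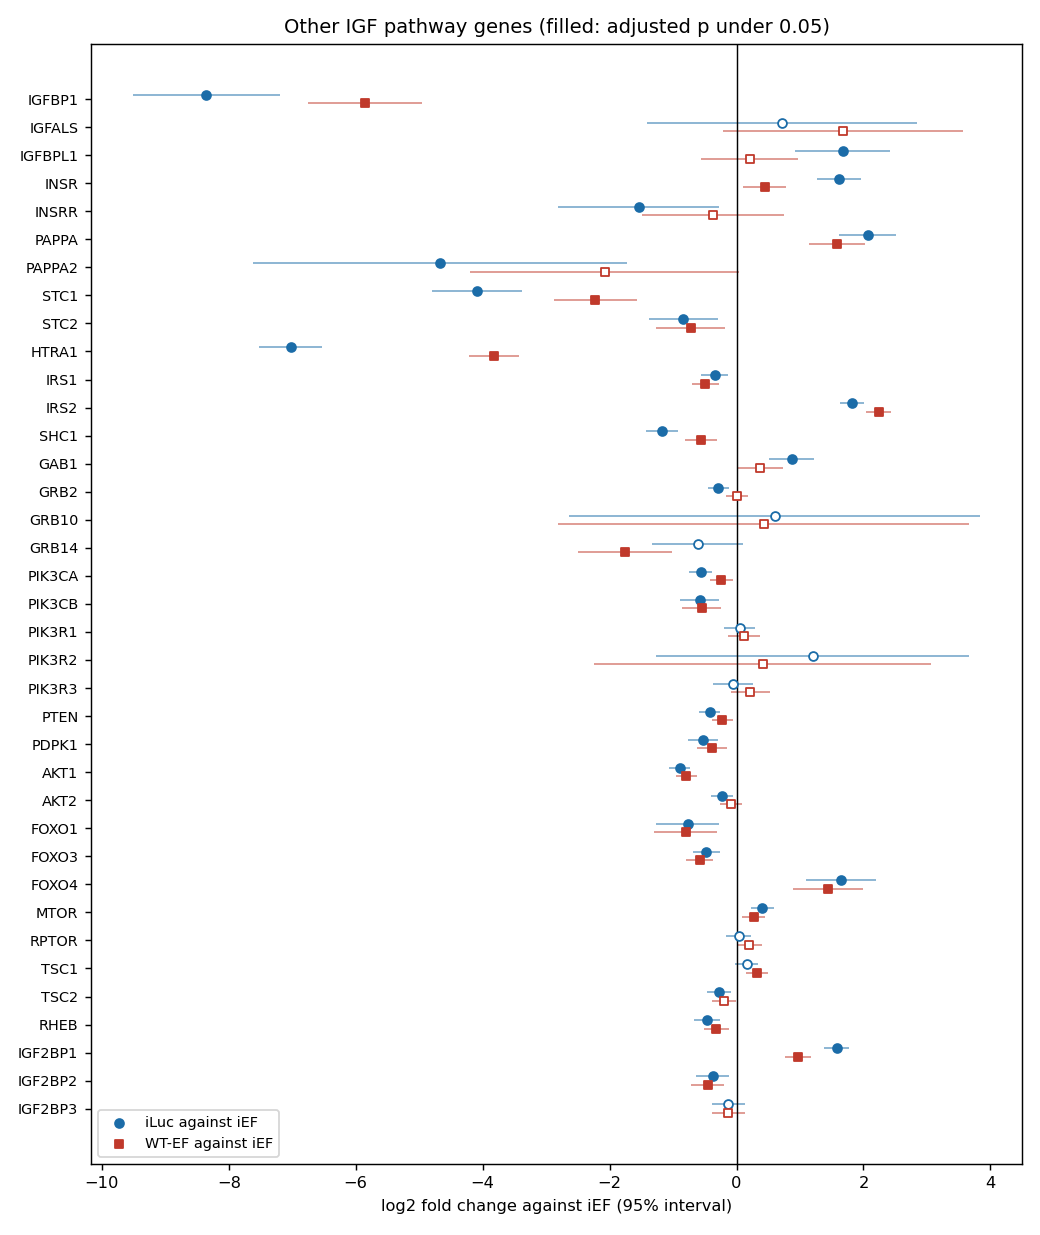
Log2 fold change against iEF with its 95% interval for 37 other IGF pathway genes tested, in iLuc (circles) and WT-EF (squares), with filled points at an adjusted p under 0.05. IGFBP1 and HTRA1 lie farthest below 0 (-8.35 and -7.02 in iLuc), and PAPPA, IRS2 and FOXO4 are among those above 0.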

How the data were processed

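Total RNA of A673 cells was sequenced as paired-end reads from ScriptSeq libraries, 3 for each of 5 conditions. The authors aligned reads to hg19 with STAR and made raw counts per gene with htseq-count (intersection-strict), and these deposited counts are the main data; the strand setting and the annotation release are not given in the sources used here. A second deposited table holds the authors' ComBat-adjusted counts, an adjusted quantity with no fixed unit, used in 1 alternative. A table of the authors' log2 fold changes and p-values was not used, and neither were 3 columns of the count table that no sample here matches.

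Groups and replicate numbers came from the labels. Of 57820 gene identifiers, 55538 matched a symbol and position in the GRCh37 annotation. Genes with a mean of 1 count or more were tested with edgeR 4.0.16 (R 4.3.3), TMM scaling and the quasi-likelihood test, with condition and replicate number as terms over all 15 libraries. The replicate number was a block because the study adjusted each replicate set. SEs follow from the F statistic, and p-values were adjusted by Benjamini-Hochberg over 28793 genes per comparison. Same-numbered libraries deviated together with r over 0.1 in each of 3 pairs for WT-EF against DAF (r from 0.176 to 0.353) and DAF against Δ22 (0.711 to 0.78). In the other 5 comparisons not every pair reached this. For iLuc, Δ22 and DAF against iEF every pair was positive, the lowest at 0.036, 0.064 and 0.071. Replicates differed by more than sampling noise, and none was merged. On simulated counts with 200 changed genes for WT-EF against iEF (28139 genes), the test recovered 166 and called 4 others. Only well-counted genes were changed there, each by a fixed fold. No other gene differed by condition and no replicate set effect was simulated, so these figures do not carry over to the deposited counts.

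Named genes were the 10 IGF genes, FLI1, the 12 other pathway genes with the largest called change over 1 (log2) in iLuc against iEF (1 of these is not reported here and was left out of the pathway list and every count, which left 11, and SHC1, next in rank, was not named in its place), and the 3 genes most correlated with IGF1 or IGFBP3 in log2 CPM among genes averaging 50 counts. The IGF genes and the lists were chosen with earlier results of these data known. Alternatives were DESeq2 1.42.0, its size factors in edgeR, no filter, filterByExpr, no replicate block, the 6 libraries compared, limma 3.58.1 on ComBat-adjusted CPM (pseudocount 0.5) and leaving out each library or replicate set. Added after seeing the data were total counts without TMM and merged exon lengths. Intervals cover counting and replicate error in these libraries only. No protein sequence was used here.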

Additional observations from a re-analysis of the deposited data

How the results depend on the processing

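Over the 25 alternatives, 1655 of 1739 values for the IGF genes kept their direction and their side of the threshold, 44 lost a call, 23 gained one and 17 changed sign, and each of those 17 was a value that was called in neither fit. The calls of IGF1, IGF2R and the 6 binding proteins in iLuc and WT-EF against iEF held throughout, and counts of called IGF genes for iLuc against iEF, WT-EF against iEF and WT-EF against DAF stayed within 8 to 9. In Δ22 against iEF, 2 IGF genes were called, against 3 without a filter, 1 with limma on the ComBat-adjusted counts and 0 to 2 on leaving out libraries. The other pathway genes called there were 2, against 3 with DESeq2, 5 without a filter and 0 to 4 on leaving out libraries. Without replicate set 2, 0 IGF genes were called by edgeR, 2 of them at an unadjusted p under 0.05, and 0 other pathway genes, 7 at an unadjusted p under 0.05; without iEF replicate 3, 0 other pathway genes were called, 10 at an unadjusted p under 0.05. In DAF against Δ22, 1 IGF gene was called, against 3 without a filter, 3 with only the 6 libraries compared and 1 to 2 on leaving out libraries. On leaving out libraries, the IGF genes called ran from 2 to 6 in DAF against iEF and from 4 to 8 in WT-EF against iLuc, and the other pathway genes called from 14 to 22 in WT-EF against iEF (23 with every library) and from 5 to 11 in DAF against iEF (9 with every library). Over the same fits, uncalled log2 fold changes crossed 0 for IGF1R in iLuc (-0.14 to 0.14) and Δ22 (-0.0346 to 0.0949) against iEF, IGF2 in Δ22 (-0.61 to 0.33), IGFBP4 in DAF (-0.46 to 0.0031), and, in DAF against Δ22, IGF2R (-0.0178 to 0.15), IGFBP2 (-0.0104 to 0.19), IGFBP5 (-0.13 to 0.22) and IGFBP7 (-0.41 to 0.0871). The causes were not tested.

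The replicate number met the rule for pairing samples in WT-EF against DAF and DAF against Δ22, and not in the other 5 comparisons: over all conditions, deviations of same-numbered libraries had a median correlation of 0.185 over 30 pairs (range -0.183 to 0.78, 21 over 0.1), against -0.0842 over 60 pairs of different number. Without the replicate block, the IGF genes called in Δ22 against iEF were 0 by edgeR (2 at an unadjusted p under 0.05, and 2 called by DESeq2 with the block) and the other pathway genes called were 1 in place of 2. Fits that left a condition with fewer libraries borrowed the spread of the other conditions. Low counts limit IGF2, PAPPA2, INSRR and, in iLuc, IGFBP1.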
